A study of Mus musculus with 24 samples.

Results

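The comparison described here sets fibroblasts carrying the HEA mutant of MycER against fibroblasts carrying an empty vector (EV), both after 4 h in OHT. Its members are 6 libraries, 3 HEA and 3 EV, of the 24 RNA-seq libraries in the series, and all 12268 genes with at least 1 RPKM in at least 3 libraries, of 21671 in the table. The cells are 3T9 mouse fibroblasts, an immortalised line, infected with the vector named BP-MycER-HEA or with its empty counterpart. OHT (4-hydroxytamoxifen) was given to both groups, so the EV cells carry the drug but no fusion protein. MycER is a fusion of Myc, a transcription factor, with the part of the oestrogen receptor that binds hormone, so that OHT activates it. The wild-type (WT) and RA forms of the fusion in the same line at 4 h, and EV and HEA cells at 8 h, serve as points of reference. The labels do not say whether the 3 libraries of a group came from separate infections or cultures. The p-values therefore refer to the spread within groups, pooled over the 8 groups of all 24 libraries, which may be technical.

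Myc pairs with Max and binds DNA through a basic region, with a preference for the E-box CACGTG and with additional contacts to the DNA backbone that do not depend on the sequence. In HEA, residues of the basic region that touch the bases of the E-box are replaced by alanine, while RA lacks arginines that contact the backbone. In growing fibroblasts, Myc is known for driving ribosome production, RNA polymerase I and III, nucleotide synthesis and entry into S phase, and for holding down cell cycle inhibitors such as p21. The series title poses the question of how far non-specific and sequence-specific DNA contacts are each required for regulation by Myc.

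Levels below are RPKM (deposited values, scaled for the length of the gene and the size of the library), given per library or as mean ± SD of 3 libraries. Differences are HEA minus EV on the scale of log2(RPKM + 0.5), with the SE and the Benjamini-Hochberg adjusted p from limma over all 12268 genes, called below 0.05. Depth, recovered from the steps of low RPKM values, was 10.2 to 11.9 M reads in the EV libraries and 10.7 to 11.0 M in the HEA libraries. On the first principal component, with 35.4% of the variance, the HEA libraries at both times lay between 31.4 and 46.6, and all 18 others between -21.0 and -6.76. Of 12 fibroblast markers, 10 had a mean of at least 1 RPKM, and Thy1 and Fap were below it in both groups. The 12 summed to 723 to 819 RPKM in EV and 753 to 819 RPKM in HEA. Summed epithelial and endothelial markers stayed at 1.27 RPKM or less.

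The receptor part of the fusion gave a check of which libraries carry a fusion, but not of which form they carry. Esr1, the oestrogen receptor gene, stood at 0.385, 0.293 and 0.153 RPKM in the EV libraries and at 12.5, 12.0 and 10.1 RPKM in the HEA libraries, a log2 difference of 3.96 ± 0.14 (adjusted p = 3.40e-14). WT cells had 11.9 ± 0.66 RPKM and RA cells 11.7 ± 0.62, and HEA differed from WT by -0.05 ± 0.14 (adjusted p = 0.796). The HEA and WT libraries overlapped, and all lay above every EV library. The Myc gene itself read 53.2, 62.4 and 56.0 RPKM in EV and 68.2, 48.5 and 50.3 RPKM in HEA, overlapping groups with a difference of -0.05 ± 0.17 (adjusted p = 0.827). In WT cells Myc was at 40.9 ± 10.3 RPKM, and HEA lay above WT by 0.46 ± 0.17 (adjusted p = 0.0281). The files do not say whether reads of the fusion count towards the mouse Myc row.

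A large share of genes differed between HEA and EV cells after 4 h in OHT. Libraries without OHT are not analysed here, so differences that arose after OHT cannot be told apart from those already present between the infected populations. Of the 12268 genes, 5303 (43.2%) were called, 2176 higher (17.7%) and 3127 lower (25.5%) in HEA cells, and 6157 had an unadjusted p below 0.05. Changes of at least 2-fold were fewer and leaned the other way, with 402 genes higher (3.28%) and 225 lower (1.83%). All 3 HEA libraries lay above all 3 EV libraries for 2477 genes (20.2%) and below them for 3266 (26.6%). The median difference over all tested genes was -0.06. After each library was centred on its median, 2423 genes were called higher and 2676 lower. RPKM values are relative to each library's total, so a change in RNA per cell cannot be seen, and fewer cells expressing a gene cannot be told apart from less RNA per cell. Leaving out the library HEA 2 lowered the number of calls to 4323, the lowest of the 6 such counts.

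**Figure D1:**
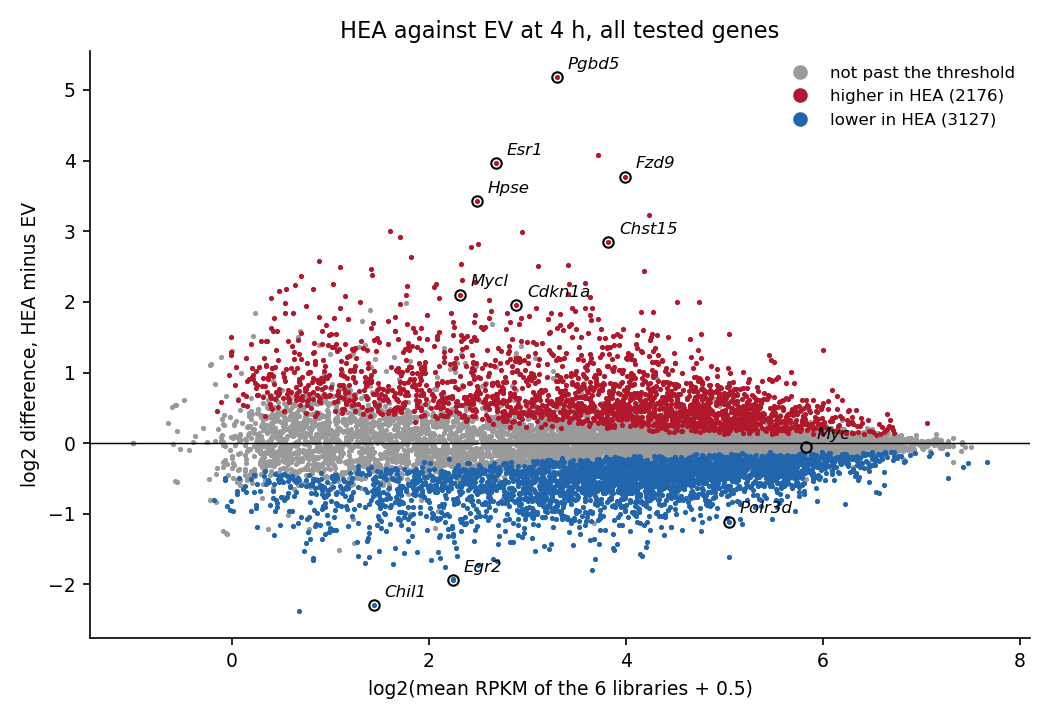
Log2 difference HEA minus EV at 4 h (vertical axis) against the mean level of the 6 libraries as log2(RPKM + 0.5) (horizontal axis), with each of the 12268 tested genes as a point. Red points are the 2176 genes called higher in HEA and blue points the 3127 called lower. The largest differences are rises of genes with low or moderate levels, led by Pgbd5 at 5.18, while Myc lies near 0.

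Many of the strong rises started from low levels in EV cells. Among the 402 genes called at least 2-fold higher, the median level went from 2.42 RPKM in EV to 8.12 RPKM in HEA, and 115 had an EV mean below 1 RPKM. The 225 genes called at least 2-fold lower went from a median of 8.50 RPKM to 3.25 RPKM, and none had an EV mean below 1 RPKM. The filter on low values and the constant added before the log leave such a gene little room to fall 2-fold. The counts of low EV means therefore cannot show that rises and falls differ in their starting levels. The HEA mean was below 1 RPKM for 37 of the 225 lower genes and 4 of the 402 higher genes. For the extremes of each direction, the 250 bases before the listed start are shown, since the HEA residues are those that read the E-box. The sequences are from RefSeq (build GRCm38.p6), written on the strand of the gene, with CACGTG in capitals. They lie at chr8:124433937-124434186 (Pgbd5, minus strand), chr5:135251048-135251297 (Fzd9, minus strand), chr1:134181906-134182155 (Chil1, plus strand) and chr10:67535249-67535498 (Egr2, plus strand, the first of 5 starts in the table). Nop2 (chr6:125131633-125131882, plus strand), a methyltransferase of ribosomal RNA, is added as the ribosome assembly gene with the smallest p among those with a CACGTG in this stretch.
Pgbd5: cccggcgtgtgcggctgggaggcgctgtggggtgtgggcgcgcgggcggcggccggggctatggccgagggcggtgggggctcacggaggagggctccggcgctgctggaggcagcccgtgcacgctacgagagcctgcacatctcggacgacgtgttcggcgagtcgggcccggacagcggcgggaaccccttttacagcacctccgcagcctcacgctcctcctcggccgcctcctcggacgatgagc
Fzd9: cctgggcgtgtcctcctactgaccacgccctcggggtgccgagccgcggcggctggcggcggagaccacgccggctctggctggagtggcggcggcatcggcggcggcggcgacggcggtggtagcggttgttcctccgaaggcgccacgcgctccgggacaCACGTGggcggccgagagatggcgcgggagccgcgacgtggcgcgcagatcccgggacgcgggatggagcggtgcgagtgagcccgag
Chil1: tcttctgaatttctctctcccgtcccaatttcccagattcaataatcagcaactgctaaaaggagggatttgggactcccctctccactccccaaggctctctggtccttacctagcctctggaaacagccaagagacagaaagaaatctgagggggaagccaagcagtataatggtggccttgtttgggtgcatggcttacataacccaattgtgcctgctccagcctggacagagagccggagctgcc
Egr2: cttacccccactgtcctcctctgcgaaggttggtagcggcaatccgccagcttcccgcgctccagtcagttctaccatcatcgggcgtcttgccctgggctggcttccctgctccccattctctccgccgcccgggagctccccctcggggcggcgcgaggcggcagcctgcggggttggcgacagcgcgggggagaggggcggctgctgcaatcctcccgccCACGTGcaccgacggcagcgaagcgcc
Nop2: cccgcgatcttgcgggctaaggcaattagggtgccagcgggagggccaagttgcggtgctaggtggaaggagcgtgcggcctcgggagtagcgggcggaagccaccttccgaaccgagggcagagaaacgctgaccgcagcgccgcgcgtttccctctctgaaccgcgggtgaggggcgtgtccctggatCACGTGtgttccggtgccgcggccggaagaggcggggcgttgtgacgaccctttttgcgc
Pgbd5 and Chil1 hold no CACGTG in these stretches, Fzd9 holds 1 that begins 88 bases before the start, Egr2 holds 1 at 27 bases and Nop2 holds 1 at 60 bases. The Pgbd5 stretch contains a start codon (atg) followed by an open reading frame to its end. Its listed start may thus lie within coding sequence, and the missing CACGTG may not describe its promoter. A CACGTG was thus present in a strong rise, Fzd9, and at the listed start used for a strong fall, Egr2. Nop2 was chosen for holding the motif, so its match carries no information. Searching the 300-base windows (250 bases before to 50 after the start, the hexamer being its own reverse complement) was possible for 7593 tested genes with a single promoter in the table. CACGTG was present in 10.4% of all of these, in 5.46% of the 238 windows of genes at least 2-fold higher in HEA and in 12.0% of the 125 windows of genes at least 2-fold lower. By the same count it was present in 21.4% of the 56 windows of genes at least 2-fold higher in WT than in EV and in 8.20% of the 61 windows of genes at least 2-fold lower. For HEA calls of any size the shares were 8.43% of 1352 windows of higher genes and 13.8% of 1979 windows of lower genes. These shares are descriptions, and a match does not show binding.

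Pgbd5, a gene derived from a piggyBac transposase, gave the largest difference of all tested genes. Its EV libraries were at 0.0895, 0 and 0 RPKM, resting on 3, 0 and 0 reads, and its HEA libraries were at 18.2, 20.5 and 17.3 RPKM, from 568, 618 and 536 reads. The difference was 5.18 ± 0.14 (adjusted p = 7.21e-16). WT cells had 0.175 ± 0.035 RPKM and RA cells 0.0205 ± 0.018 RPKM, so this transcript was near 0 in the other 3 groups at 4 h. Fzd9, a Frizzled receptor for Wnt proteins, was at 1.56, 1.85 and 1.46 RPKM in EV and 25.0, 38.4 and 24.1 RPKM in HEA, a difference of 3.77 ± 0.18 (adjusted p = 3.68e-12). Here WT cells were intermediate at 8.02 ± 1.7 RPKM, with HEA above WT by 1.78 ± 0.18 (adjusted p = 8.04e-08).

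The next genes are among the 10 largest rises, with predicted and multi-copy genes passed over. Hpse, which encodes heparanase, an enzyme that cuts heparan sulfate, stood at 0.678, 0.281 and 0.430 RPKM in EV and at 8.25, 11.3 and 9.85 RPKM in HEA (3.43 ± 0.18, adjusted p = 2.37e-11). Chst15, a sulfotransferase acting on chondroitin sulfate, was at 3.07, 2.60 and 3.19 RPKM in EV and 22.4, 27.2 and 23.5 RPKM in HEA (2.85 ± 0.13, adjusted p = 3.18e-12). Engase, an enzyme that trims N-glycans from proteins, was at 1.37, 1.27 and 1.04 RPKM in EV and 12.4, 13.5 and 13.6 RPKM in HEA (2.99 ± 0.15, adjusted p = 1.02e-11). For these 3 enzymes every HEA library lay above every EV library. Their WT means were 0.578, 3.37 and 1.21 RPKM, and HEA lay above WT by 3.25, 2.68 and 3.02.

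Frat1, whose protein binds the kinase GSK3, was at 0.387, 0.150 and 0.236 RPKM in EV and 3.95, 6.52 and 5.39 RPKM in HEA (2.92 ± 0.20, adjusted p = 1.22e-09). Sfrp2, a secreted Frizzled-related protein that modulates Wnt signals, was at 0.926, 1.17 and 0.529 RPKM in EV and 8.47, 10.9 and 7.23 RPKM in HEA (2.78 ± 0.27, adjusted p = 1.23e-07). Neither gene's groups overlapped, and the WT means were 0.161 RPKM for Frat1 and 0.784 RPKM for Sfrp2. The remaining members of the 10, besides Esr1, were Peli3, a Pellino ubiquitin ligase (3.00 ± 0.20), and Trim7, another ubiquitin ligase (2.82 ± 0.15). For each of the 10 except Esr1 and Fzd9, the WT minus EV difference lay between -0.20 and 0.35 and did not pass the threshold, and HEA was above WT in the direct test.

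**Figure D2:**
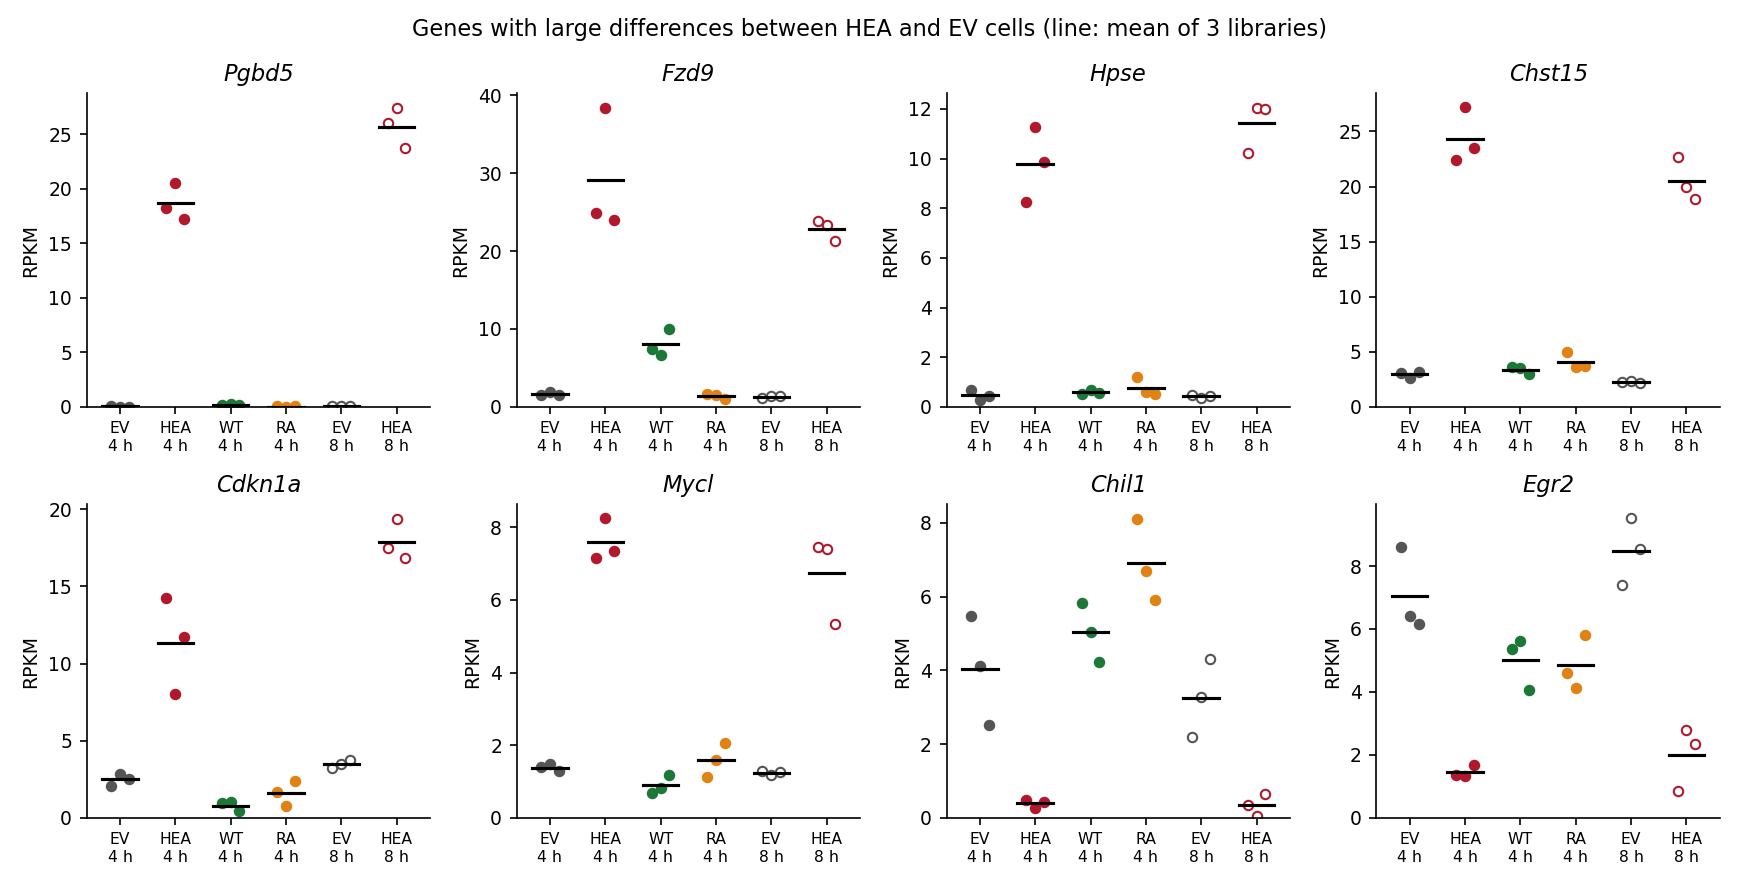
RPKM per library (points, closed at 4 h and open at 8 h) and mean of 3 libraries (line) for 8 genes in EV, HEA, WT and RA cells at 4 h and in EV and HEA cells at 8 h, with a separate vertical axis from 0 for each gene. Pgbd5, Hpse, Chst15, Cdkn1a and Mycl are high in the HEA libraries of both times and low in all others, Fzd9 is intermediate in WT, and Chil1 and Egr2 are low in HEA.

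The largest falls included secreted proteins, a transcription factor and cytoskeletal genes. Chil1, a secreted chitinase-like protein, was at 5.49, 4.11 and 2.50 RPKM in EV and 0.483, 0.277 and 0.431 RPKM in HEA (-2.29 ± 0.27, adjusted p = 1.14e-06). Egr2, a zinc finger factor induced by growth factors, was at 8.61, 6.40 and 6.15 RPKM in EV and 1.34, 1.33 and 1.69 RPKM in HEA (-1.94 ± 0.24, adjusted p = 2.56e-06). Fgf2, a fibroblast growth factor, was at 4.83, 6.70 and 5.45 RPKM in EV and 1.93, 1.16 and 1.33 RPKM in HEA (-1.65 ± 0.24, adjusted p = 1.35e-05). For all 3 genes every HEA library lay below every EV library. They differed in the other forms, since Chil1 was at 5.03 ± 0.81 RPKM in WT, while Fgf2 was at 3.39 ± 0.67 RPKM in WT and 1.81 RPKM in RA. Gsta4, a glutathione transferase, fell from 7.93 ± 0.66 to 2.41 ± 1.5 RPKM, with its HEA libraries spread from 0.684 to 3.51 RPKM. Lmod1, a leiomodin that nucleates actin filaments, fell by 1.69 on the log2 scale, and WT lay at -1.30 against EV, with HEA and WT differing by -0.39 ± 0.24 (adjusted p = 0.183). The other members of the 10 were Cdc42ep5 (-1.92), Nyap1 (-1.71), Eva1a (-1.66), Slpi (-1.65) and Fam110c (-1.64).

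Among the lists of cell growth, which hold the best known Myc targets, ribosome assembly had the largest share of members lower in HEA cells. Of 61 tested genes of ribosome assembly and small nucleolar RNPs, 45 (73.8%) fell and 2 rose, against 25.5% and 17.7% of all genes, with a median difference of -0.29. The falls numbered 35 after median centring and 32 when only the groups compared were fitted. Lower calls over all genes went from 3127 to 2676 and 2035 in these fits. In WT cells 44 of the same 61 were higher than EV and none lower, and in the direct comparison 53 were lower in HEA than in WT and none higher. Rrp9, a component of the U3 particle that processes ribosomal RNA, was at 63.5, 73.4 and 61.5 RPKM in EV, at 42.9, 40.0 and 39.0 RPKM in HEA (-0.69 ± 0.07, adjusted p = 2.74e-07) and at 97.2 ± 4.6 RPKM in WT. Rcl1, needed for maturation of the small subunit RNA, fell from 36.6 ± 2.5 to 17.0 ± 4.7 RPKM (-1.12 ± 0.13), and Tsr1, another factor of the small subunit, from 35.6 ± 2.2 to 22.4 ± 2.5 RPKM (-0.66 ± 0.07). Nop2, chosen for its promoter after the values were seen, went from 89.4 ± 5.9 to 67.7 ± 3.6 RPKM (-0.40 ± 0.07) and was at 109 ± 4.8 RPKM in WT. The 2 that rose were Ddx10, an RNA helicase (0.41 ± 0.08), and Noc4l (0.19 ± 0.06), and the call of Noc4l was lost without HEA 1 (adjusted p = 0.0722). Among 51 of these genes with a single promoter window, 27.5% held CACGTG, and among the 39 of them that fell the share was 28.2%.

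The RNA polymerase I and III list had 15 of 31 members lower (48.4%) and 3 higher, with a median of -0.25. The falls numbered 10 without EV 3 or HEA 2, and 11 without EV 1 or HEA 1 or after median centring. Lower calls over all genes also dropped, from 3127 to 2595 without EV 3 and 2478 without HEA 2. They numbered 2568 without EV 1, 2672 without HEA 1 and 2676 after median centring. Polr3d, a subunit of RNA polymerase III, was at 43.8, 48.2 and 42.3 RPKM in EV and 21.6, 19.8 and 20.0 RPKM in HEA (-1.11 ± 0.07, adjusted p = 2.85e-10). The 2 largest subunits of the same enzyme, Polr3a (-0.55 ± 0.07) and Polr3b (-0.67 ± 0.07), also fell. Gtf3c1, a part of the factor TFIIIC, rose from 20.3 ± 3.9 to 36.1 ± 4.8 RPKM (0.83 ± 0.13), and Brf1, which places polymerase III at its promoters, rose from 16.4 ± 2.7 to 23.0 ± 2.3 RPKM (0.49 ± 0.13). Translation factors and tRNA synthetases stayed closer to all genes, with 9 of 44 lower (20.5%) and 1 higher. The tryptophan synthetase Wars had the smallest p of the list (-0.47 ± 0.07), and the rise was of Eif2b4 (0.33 ± 0.08).

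Nucleotide and one-carbon metabolism had 17 of 32 members lower (53.1%) and 2 higher, with a median of -0.26. In WT 18 were higher than EV, and 28 were lower in HEA than in WT. Shmt1, which passes carbon units from serine to folate, was at 32.9, 33.2 and 31.9 RPKM in EV and 20.6, 18.5 and 19.9 RPKM in HEA (-0.72 ± 0.09, adjusted p = 1.70e-06). Mthfd1, the next enzyme of the folate route, fell by 0.60 on the log2 scale and Pfas, an enzyme of purine synthesis, by 0.43. Impdh1, an enzyme of guanine nucleotide synthesis, rose (0.75 ± 0.14), as did Dhodh of pyrimidine synthesis (0.34 ± 0.09). Among 36 genes of mitochondrial import and ribosomes, 7 fell (19.4%) and 3 rose (8.33%), below the 25.5% and 17.7% of all genes. The rises were of the mitochondrial ribosome proteins Mrpl4 (0.51) and Mrps12 (0.41) and the import factor Tomm34 (0.22). Timm10, a chaperone of the intermembrane space, gave the largest fall of the list, at 48.7, 51.1 and 48.0 RPKM in EV and 20.5, 21.5 and 24.3 RPKM in HEA (-1.14 ± 0.10, adjusted p = 3.85e-08). Of 11 polyamine genes 4 fell (36.4%) and 2 rose (18.2%), against 25.5% and 17.7% of all genes. The falls were of Srm, spermidine synthase (-0.52 ± 0.08), Amd1, which supplies its substrate (-0.43 ± 0.07), Sat1 (-0.54) and Oaz2 (-0.46). The 2 that rose were Azin1 (0.36 ± 0.08) and Smox, spermine oxidase (0.54 ± 0.15).

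**Figure D3:**
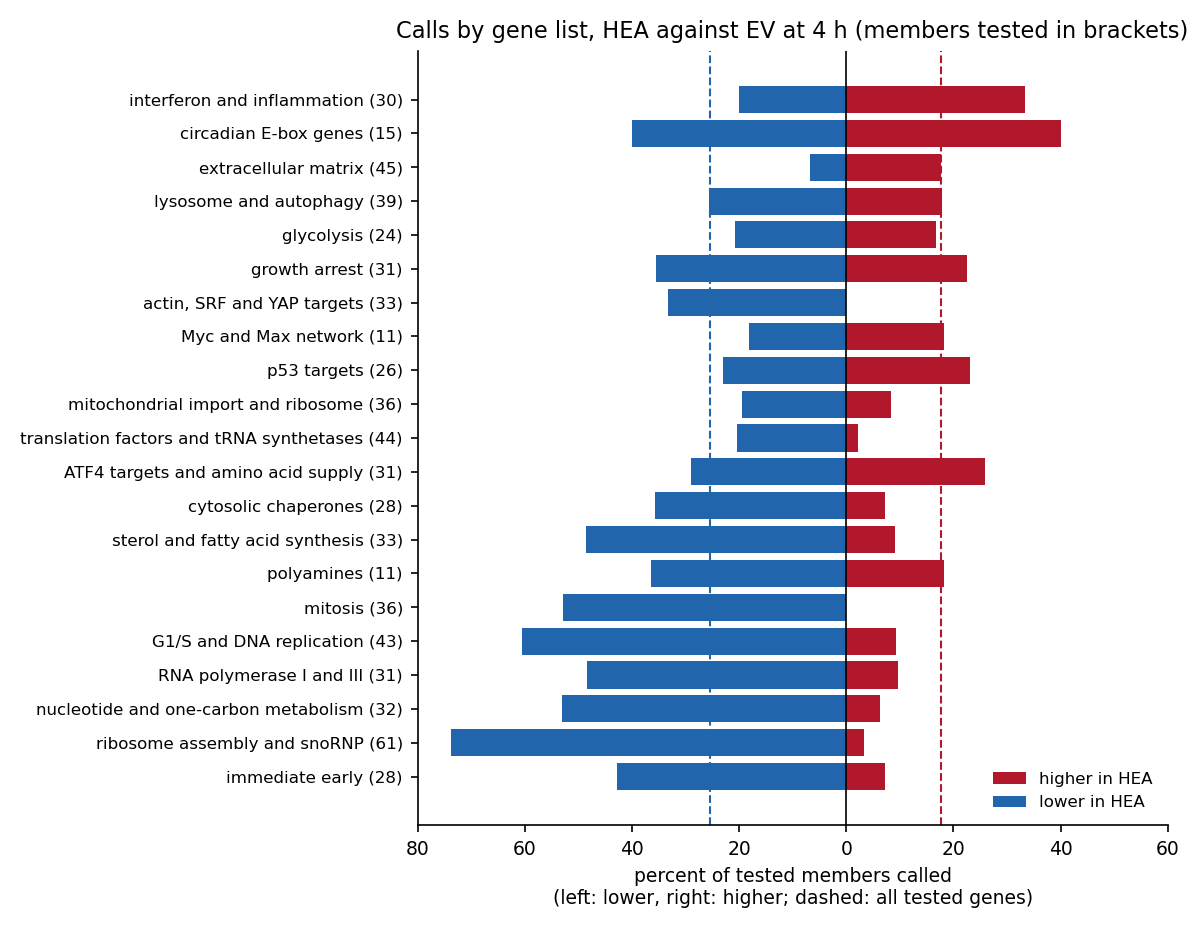
Percentage of the tested members of 21 gene lists called higher (red, right) or lower (blue, left) in HEA against EV at 4 h, ordered by the median difference, with dashed lines at the 17.7% and 25.5% of all tested genes. Ribosome assembly has 73.8% of its members lower, and the lists of mitosis and of actin, SRF and YAP targets have no member higher.

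Many cell cycle genes fell as well. Of 43 genes of the G1/S transition and DNA replication, 26 fell (60.5%) and 4 rose, with a median of -0.22. Cdk2, the kinase that starts S phase, was at 48.0, 43.4 and 45.4 RPKM in EV and 25.4, 23.2 and 26.2 RPKM in HEA (-0.86 ± 0.07, adjusted p = 5.49e-09). Its partner cyclin E1, Ccne1, fell from 27.5 ± 1.2 to 13.7 ± 2.7 RPKM, so that it fell by 1.00 ± 0.13 on the log2 scale, while cyclin E2, Ccne2, rose from 10.5 ± 2.4 to 16.3 ± 0.86 RPKM (0.64 ± 0.16). The 2 E-type cyclins thus went in opposite directions. Mcm10, a replication initiation factor, fell (-0.84 ± 0.08) and Orc1, of the origin recognition complex, rose (0.61 ± 0.09), as did Rfc4 (0.56) and E2f7 (0.47). Among 36 mitosis genes 19 fell (52.8%) and none rose, with Cenpf, a kinetochore protein, at -0.82 ± 0.15 and Birc5, survivin, at -0.38 ± 0.06. The count of mitosis falls was 12 without EV 1, 11 without EV 3 and 10 without HEA 1, and 14 of the 36 were also lower in WT than in EV.

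Cdkn1a, which encodes the cyclin-dependent kinase inhibitor p21, rose in HEA. Its EV libraries were at 2.09, 2.82 and 2.55 RPKM and its HEA libraries at 14.3, 8.03 and 11.7 RPKM, a difference of 1.96 ± 0.26 (adjusted p = 5.17e-06). In WT it was at 0.783 ± 0.32 RPKM, a difference from EV of -1.25 ± 0.26 (adjusted p = 0.00141), and HEA lay above WT by 3.20 ± 0.26 (adjusted p = 5.28e-09). In the growth arrest list, which holds Cdkn1a, 11 of 31 fell (35.5%, against 25.5% of all genes) and 7 rose (22.6%, against 17.7%). The median of this list was -0.01. Without EV 2, HEA 1 or HEA 3 the number of rises was 4, and without EV 1 the number of falls was 7. Ccng2, an atypical cyclin of quiescent cells, fell from 25.8 ± 4.8 to 13.0 ± 3.0 RPKM (-0.97 ± 0.16) and was lower still in WT, at 5.87 ± 0.93 RPKM. Among 26 p53 targets, a list that also holds Cdkn1a, 6 rose and 6 fell (23.1% each), against 17.7% and 25.5% of all genes. Sulf2, a heparan sulfatase, rose (0.81 ± 0.12), and Mdm2, the ligase that limits p53, fell (-0.26 ± 0.06), with an adjusted p of 0.0508 when only the groups compared were fitted.

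**Figure D4:**
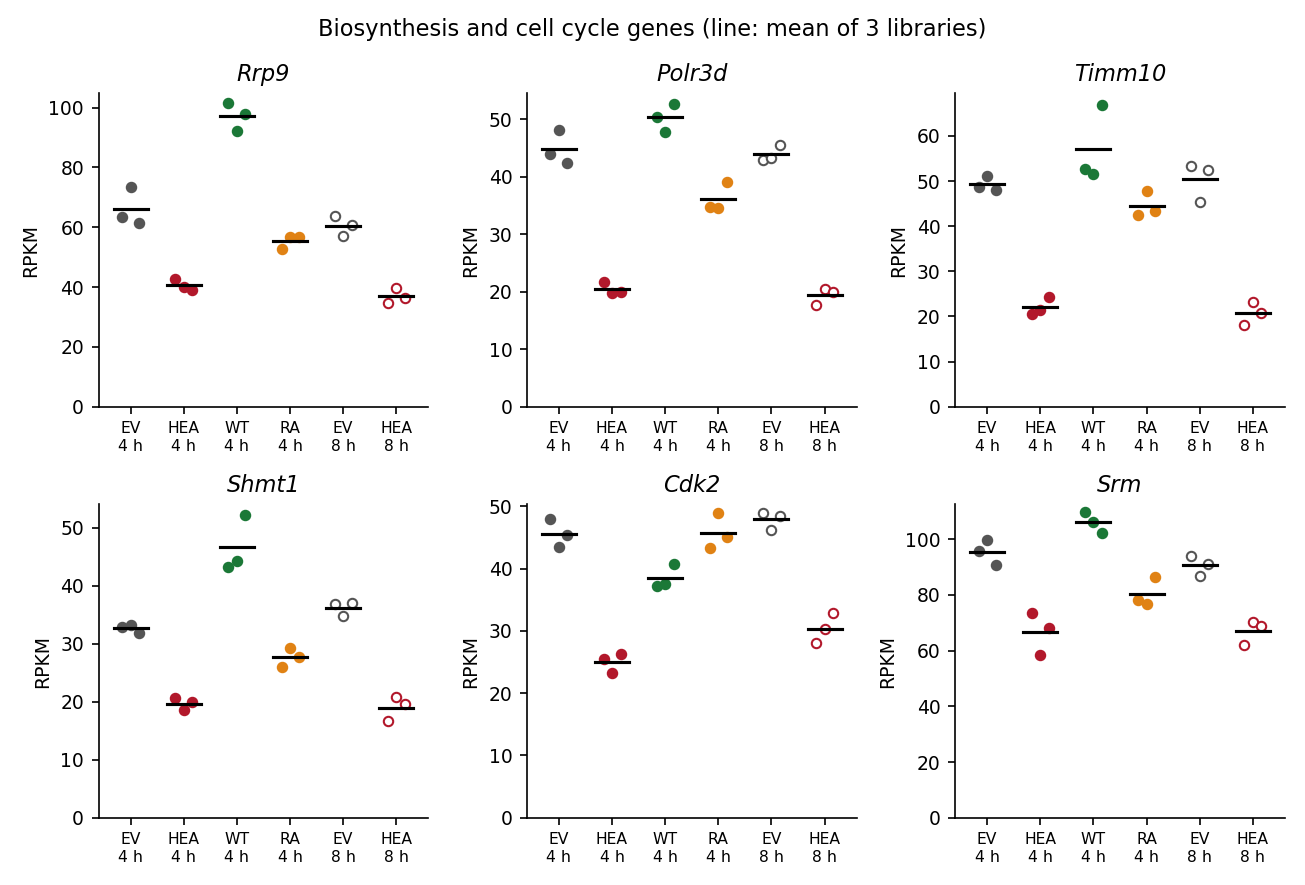
RPKM per library (points, closed at 4 h and open at 8 h) and mean of 3 libraries (line) for 6 genes of biosynthesis and the cell cycle in EV, HEA, WT and RA cells at 4 h and EV and HEA cells at 8 h, with each vertical axis starting at 0. In each panel the 6 HEA libraries lie below all EV libraries, and for Rrp9, Shmt1 and Srm the WT libraries lie above all EV libraries.

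In the Myc and Max network 2 of 11 tested members rose and 2 fell (18.2% each), against 17.7% and 25.5% of all genes. Mycl, a Myc paralogue, was at 1.39, 1.47 and 1.28 RPKM in EV and 7.16, 8.25 and 7.34 RPKM in HEA (2.10 ± 0.16, adjusted p = 4.14e-09), and was at 0.895 ± 0.26 RPKM in WT. Mxi1, a partner of Max that opposes Myc, was at 8.58, 7.28 and 9.59 RPKM in EV and 20.8, 15.7 and 19.5 RPKM in HEA (1.09 ± 0.12, adjusted p = 3.46e-07), and its WT mean was 15.1 ± 1.2 RPKM. HEA lay above WT by 2.55 ± 0.16 for Mycl (adjusted p = 1.57e-10) and by 0.29 ± 0.12 for Mxi1 (adjusted p = 0.0448). Mxd3, another antagonist, fell (-0.72 ± 0.16), as did Mlx (-0.49 ± 0.14), whose call was lost without HEA 2 (adjusted p = 0.0717). The other 7 of 11 tested members did not pass the threshold.

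Immediate early and growth factor response genes had 12 of 28 members lower (42.9%) and 2 higher, with a median of -0.37 (-0.26 without HEA 3). Besides Egr2, Arc, best known from synapses, fell from 21.2 ± 1.6 to 7.22 ± 1.6 RPKM (-1.51 ± 0.20), and Dusp6, a phosphatase of the kinase ERK, from 29.9 ± 3.4 to 14.7 ± 2.2 RPKM (-1.01 ± 0.13). The opposing members were Klf2 (1.00 ± 0.26) and the kinase Plk3 (0.50 ± 0.13). Of 33 actin, SRF and YAP targets 11 fell (33.3%, against 25.5% of all genes) and none rose, though the median was -0.05. Srf, the serum response factor itself, fell (-0.65 ± 0.12), and smooth muscle actin Actg2 went from 13.3 ± 0.53 to 4.40 ± 0.44 RPKM (-1.50 ± 0.18). Summed muscle markers were 6.23 to 7.21 RPKM in EV and 2.40 to 3.25 RPKM in HEA, where Acta1 was the called member, Myod1 was at 0 in all 6 libraries, and 6 of the 7 were below 1 RPKM in both groups. The part of these markers in the result was not tested.

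Extracellular matrix genes had 8 of 45 members higher (17.8%), close to the background of 17.7%, and 3 lower (6.67%). The rises with the smallest p-values were of the proteases Adamts1, at 57.5 ± 1.4 RPKM in EV and 88.3 ± 5.9 RPKM in HEA (0.61 ± 0.06), and Adamts5 (0.50 ± 0.10). Without HEA 2 there were 3 rises and 5 falls, and without EV 1 or EV 3 there were 5 rises. The falls were of Mmp3, stromelysin (-1.31 ± 0.31), with a wide spread of 3.33 to 10.9 RPKM in EV, of Adamts4 (-0.63 ± 0.21), whose call was lost without EV 2 or HEA 1 (adjusted p = 0.112 and 0.0941), and of Col12a1 (-0.22). Interferon and inflammation genes had 10 of 30 members higher (33.3%, against 17.7% of all genes) and 6 lower (20.0%, against 25.5%). The median of this list was 0.14 (0.05 without HEA 3). At 8 h 8 were higher and 5 lower than EV, with a median of -0.02. Ccl7, a chemokine, was at 13.6, 8.93 and 9.71 RPKM in EV and 26.3, 36.2 and 31.2 RPKM in HEA (1.51 ± 0.17, adjusted p = 8.73e-07), but it was also at 29.3 RPKM in RA and 19.7 ± 3.6 RPKM in WT. The class I molecule H2-D1 rose by 0.52 ± 0.06 and the factor Irf1 by 0.50 ± 0.07, and their differences between WT and EV were -0.16 and -0.35. The macrophage markers summed to 10.3 to 14.4 RPKM in EV and 9.19 to 14.9 RPKM in HEA, none of them called, with Emr1 and Tyrobp at 0.

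Sterol and fatty acid synthesis had 16 of 33 members lower (48.5%) and 3 higher. Dgat2, which makes triglycerides, rose from 5.03 ± 1.1 to 12.8 ± 1.6 RPKM (1.28 ± 0.13) but was higher still in WT, at 18.3 ± 1.3 RPKM, and the other 2 rises were Dhcr7 (0.80) and Acaca (0.14). Of 24 glycolysis genes 4 rose (16.7%) and 5 fell (20.8%), near the shares of all genes. The rises were of Pdk1, which inhibits pyruvate dehydrogenase (1.04 ± 0.12), the phosphofructokinase Pfkm (0.71 ± 0.10), Gpi1 (0.32) and Slc16a1 (0.21). The 5 that fell were Pfkfb4 (-0.92 ± 0.09), Pfkfb3 (-0.72), Aldoc (-0.68), Eno1 (-0.29) and Pfkp (-0.22), and 3 fell without EV 2, HEA 2 or HEA 3. Lysosome and autophagy genes had 7 higher (17.9%) and 10 lower (25.6%) of 39, shares close to the 17.7% and 25.5% of all genes. Tfeb, the factor that drives lysosome genes, fell from 4.97 ± 0.38 to 1.39 ± 0.18 RPKM (-1.54 ± 0.14). Without EV 3 or HEA 1 the lysosome falls numbered 6. Of 31 ATF4 targets and amino acid genes 8 rose (25.8%) and 9 fell (29.0%), against 17.7% and 25.5% of all genes. The glutamine transporter Slc1a5 was at -0.62 ± 0.08 and the related Slc1a4 at 0.46 ± 0.07. Without EV 1 there were 5 rises in this list. Cytosolic chaperones had 10 of 28 lower (35.7%, against 25.5% of all genes) and 2 higher (7.14%, against 17.7%). After median centring 6 were lower, where the lower calls over all genes went from 3127 to 2676. Among the falls were Hspa1b (-0.94 ± 0.13) and Hspb8 (-0.67 ± 0.10), and the 2 higher were Dnajb1 (0.37 ± 0.08) and Cct7 (0.18 ± 0.06). The call of Cct7 was lost without EV 1 (adjusted p = 0.0655) or HEA 2 (adjusted p = 0.0739). Mrps12, Sat1, Oaz2, Rfc4, E2f7, Col12a1, Acaca, Gpi1, Slc16a1, Pfkfb3, Aldoc, Eno1 and Pfkp are named to complete small counts and were chosen after their values were seen.

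Circadian genes controlled through E-boxes were changed in 12 of 15 tested members, 6 in each direction (40.0%), against 17.7% higher, 25.5% lower and 43.2% in either direction over all genes. Per2, a clock repressor, was at 3.93, 3.84 and 4.43 RPKM in EV and 10.2, 10.4 and 9.35 RPKM in HEA (1.20 ± 0.13, adjusted p = 2.75e-07). Nr1d1, which encodes REV-ERB alpha, was at 10.9, 14.2 and 12.6 RPKM in EV and 8.14, 6.84 and 7.51 RPKM in HEA (-0.70 ± 0.13, adjusted p = 0.000205). WT lay on the other side of EV for both, with Per2 at 2.85 ± 0.43 RPKM and Nr1d1 at 27.5 ± 1.9 RPKM. The direct differences from WT were 1.65 ± 0.13 for Per2 (adjusted p = 2.22e-09) and -1.81 ± 0.13 for Nr1d1 (adjusted p = 1.02e-09). Per3 fell (-0.83 ± 0.16) and was at 3.13 ± 0.72 RPKM in WT.

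Set directly against the other forms, HEA cells differed from WT cells in 6073 genes (49.5%), 2772 higher and 3301 lower, and from RA cells in 5674 genes (46.3%), 2206 higher and 3468 lower. Of the 402 genes at least 2-fold higher than EV, 352 were also above WT and 7 below, and 370 were above RA and none below. Of the 225 at least 2-fold lower, 166 were below WT and 208 below RA, and none was above either. The median WT minus EV difference was 0.15 over the 402 and -0.37 over the 225. These members were chosen by the HEA levels themselves, so the counts against WT and RA describe them and are no independent test.

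At 8 h, in libraries that share no sample with those at 4 h, HEA differed from EV in 5853 genes (47.7%), 2474 higher and 3379 lower. Of the 402 genes at least 2-fold higher at 4 h, 383 were called higher at 8 h and 1 lower, the microRNA gene Mir196b (also named after its values were seen) with means of at most 1.79 RPKM, and of the 225 lower, 208 were called lower and none higher. Across the 12268 genes the differences at the 2 times had a Pearson r of 0.908 and a Spearman rho of 0.909, a description over genes, which are not independent. Pgbd5 was at 26.0, 27.4 and 23.7 RPKM in HEA at 8 h and Cdkn1a differed by 2.21. The change in the difference itself passed the threshold for 2 genes (0.0163%), both lower at 8 h than at 4 h, and 408 had an unadjusted p below 0.05. The 2, named here after their values were seen, were L3mbtl3, a chromatin reader of methylated lysines, and Steap1, a metalloreductase-related membrane protein. L3mbtl3 was above EV at 4 h (0.63 ± 0.10) and not at 8 h (-0.20 ± 0.10, adjusted p = 0.102). Steap1 fell by 0.61 on the log2 scale at 4 h and by 1.25 at 8 h.

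**Figure D5:**
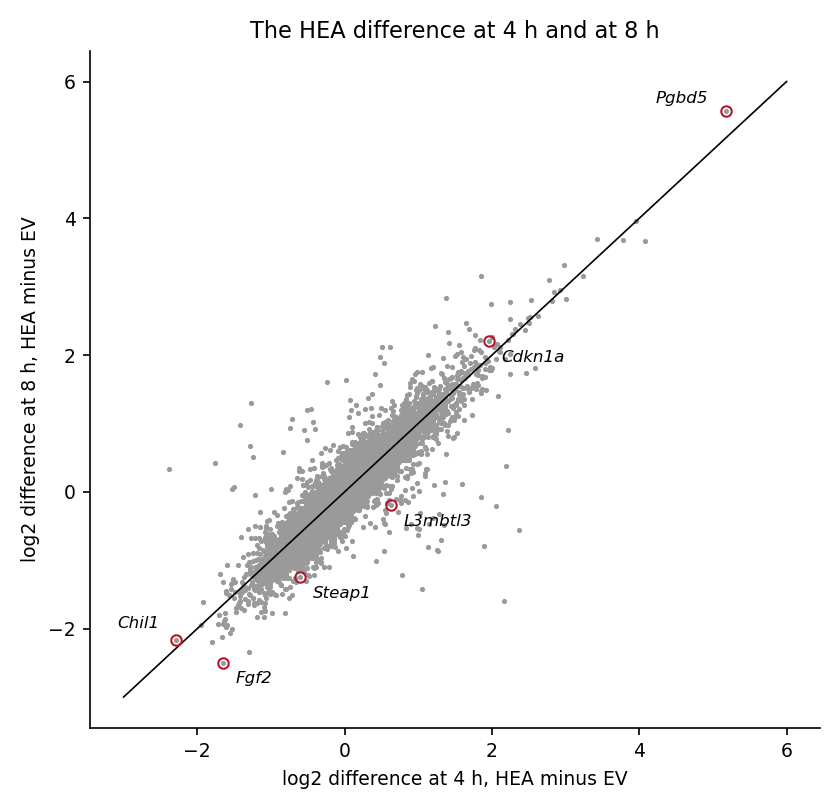
Log2 difference HEA minus EV at 8 h (vertical axis) against that at 4 h (horizontal axis) for the 12268 tested genes, each a point, with the line of equal differences. Points follow the line from Chil1 to Pgbd5, and L3mbtl3 and Steap1, the 2 genes whose change between the times passed the threshold, lie below it.

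The authors' deposited table of the same comparison calls 2123 genes higher and 2050 lower at an adjusted p below 0.05. The excess of lower calls found here, 3127 against 2176 higher, is thus not present there. Of the 5303 genes called here, 3930 (74.1%) were also called there in the same direction and none in the opposite direction. The authors' deposited table gives Pgbd5 a log2 fold change of 6.01, Cdkn1a 1.94 and Polr3d -1.06. Some genes called here were not called there, among them Noc4l, Mdm2, Cct7, Fzd2 and the tRNA synthetase gene Tars. Their adjusted p-values from the authors were 0.0640, 0.0714, 0.0732, 0.0711 and 0.135. Wnt5a, not called here, was called there (authors' adjusted p = 0.00562).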

How the data were processed

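The members of this comparison and the gene lists were chosen with earlier results of these data known. Libraries came from total RNA with a stranded kit, per the labels' protocols. Tools in the submitters' processing notes are TopHat2 2.0.8, SAMtools, featureCounts 1.4.5-p1, DESeq2, with the build mm9. No strand setting or annotation is given in the sources used here, so overlapping or antisense genes and copies that share reads cannot be told apart. The authors deposited RPKM for 21671 genes and, per the file headers, a table of log2 fold changes with p-values, used only where named. RPKM values are not counts, so limma-trend (limma 3.58.1, R 4.3.3) was run on log2(RPKM + 0.5) for genes with at least 1 RPKM in at least 3 of 24 libraries, in a single fit of 8 group means with 16 residual degrees of freedom. This scale understates changes of low genes. The test was checked on simulated data with independent noise for each gene and far fewer changed genes than were called here. That check does not cover the error rate in these libraries.

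Whole reads were recovered from the RPKM steps (100.0% of 362673 values within 0.01 read), giving 9.82 to 12.8 M reads per library. Recovered reads served for depth, for comparing replicates (chi-square per degree of freedom above 1 in all pairs) and for a voom alternative. In EV at 4 h this value was 14.9 and 12.8 for the pairs with EV 2, against 3.35 for EV 1 with EV 3. In HEA at 4 h it ran from 6.82 to 12.9. The libraries farthest from their group means were EV 2 at 4 h, WT 3 at 4 h and WT 3 at 8 h. Marker sums, promoters (RefSeq, 9545 of 12268 genes matched by symbol) and figures used Python 3.11.15.

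Named genes are Myc and Esr1, the 10 largest rises and falls (called, mean of at least 1 RPKM, groups not overlapping, predicted and multi-copy genes passed over), from each list the 3 smallest p-values, up to 2 members against a list's majority, and called Myc and Max network members. A few genes that belong to these lists are not reported here. The stretches before listed starts are those of the 2 largest rises, leaving aside Esr1 as part of the construct, the 2 largest falls, and Nop2. Alternatives were other pseudocounts (0.1 and 1), filters, scalings, fits and left-out libraries.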

Additional observations from a re-analysis of the deposited data

Results flagged for a closer look

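The difference between HEA and EV cells changed between 4 h and 8 h for 2 of the 12268 tested genes by the interaction term of limma, each with an adjusted p of 0.0372. L3mbtl3 changed by -0.83 between the times, from 0.63 above EV to -0.20. Its HEA libraries were at 8.74, 8.48 and 8.14 RPKM at 4 h and at 5.89, 5.96 and 4.91 RPKM at 8 h, while its EV means were 5.27 and 6.48 RPKM. Steap1 changed by -0.64, and its HEA libraries were at 26.4, 32.9 and 30.9 RPKM at 4 h and 18.7, 18.7 and 17.7 RPKM at 8 h, against EV means of 45.8 and 44.3 RPKM. Neither call holds under every alternative, as given in the next part.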

How the results depend on the processing

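No called gene changed sign in any of the alternatives run, and of 2303 values of named genes under an alternative 2284 stayed on their side of the threshold. The number of genes called between HEA and EV at 4 h ran from 3672, when only the groups compared were fitted (2035 lower), to 5917 without the 3 libraries farthest from their group means. Without single libraries it ran from 4323 to 5304. Higher calls then ran from 1845 to 2151 and lower calls from 2478 to 3153. The list counts without a library are to be read beside these totals. With a replicate block the number of genes called was 5196, and 5131 of the 5303 genes were still called. The labels do not say that numbers pair libraries, and the deviations of same-numbered EV and HEA libraries correlated at -0.22, 0.33 and 0.31. With only the groups compared, HEA against WT gave 3945 genes, 1820 higher and 2125 lower. The difference between the times gave 6 genes with no filter on low values (1 higher, 5 lower), 1 after quantile normalisation, 1 with voom, 1 higher and 1 lower without the trend, and 0 after median centring or with the replicate block. Without single libraries it gave 0 to 2. Median centring raised the share of calls that were higher from 41.0% to 47.5%. The voom fit and the fit without 3 libraries were chosen after seeing the data. With only the groups compared, 9 mitosis genes were lower, and 3 matrix and 3 growth arrest genes were higher. Lower in that fit were also 5 lysosome, 5 chaperone, 5 translation, 3 mitochondrial and 2 glycolysis genes. Over all genes the same fit called 1637 higher and 2035 lower, against 2176 and 3127. At 8 h a fit of only the groups compared raised the calls from 5853 to 6946. Why the counts moved was not tested. Calls lost under some alternative were those of Noc4l, Dhodh, Tomm34, Adamts4, Mdm2, Cct7, Mlx and Fzd2, and Wnt5a gained a call. Without EV 2, Adamts4 went to -0.46 (adjusted p = 0.112). Depth limits genes of few reads, such as Pgbd5 in EV.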

Other observations

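All genes in this section were chosen after their values were seen, so their levels are descriptions. Single genes of the antioxidant response, several of them known targets of the factor NRF2, lay on both sides of EV. Hmox1, haem oxygenase, was at 50.1, 50.8 and 46.6 RPKM in EV and 18.2, 11.5 and 18.5 RPKM in HEA (-1.61 ± 0.15), with 50.0 ± 8.6 RPKM in WT. Nqo1, a quinone reductase, was at 24.3, 15.2 and 23.8 RPKM in EV and 10.2, 3.98 and 9.73 RPKM in HEA (-1.42 ± 0.30). Gstm1 (-1.33 ± 0.28), Blvrb, a biliverdin reductase (-1.05 ± 0.21), Gclm (-0.53 ± 0.11) and Txnrd1 (-0.39 ± 0.06) were lower as well. In contrast, Srxn1 (-0.13 ± 0.11, adjusted p = 0.384) and Slc7a11 (-0.21 ± 0.12, adjusted p = 0.174) did not pass the threshold. Gclc, the catalytic subunit of glutathione synthesis, was higher, at 34.6 ± 0.53 RPKM in EV and 63.0 ± 0.56 RPKM in HEA (0.86 ± 0.05). Nfe2l2, the gene of NRF2, was at 23.7 ± 2.6 and 23.1 ± 3.8 RPKM. The 2 subunits of the same enzyme, Gclc and Gclm, thus lay on opposite sides of EV.

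Other genes of Wnt signalling besides Fzd9, Frat1 and Sfrp2 were mixed. Frat2 (1.14 ± 0.13), the factor Tcf7 (0.86 ± 0.15) and the receptor Fzd7 (0.66 ± 0.09) were higher in HEA, while Fzd4 (0.01 ± 0.15), Fzd1 (0.10 ± 0.15) and Lef1 (-0.20 ± 0.22) did not pass the threshold. Fzd4 was at 13.8 ± 0.96 RPKM in WT against 5.61 ± 0.051 RPKM in EV. Fzd2 (0.23 ± 0.08) lost its call without EV 3 (adjusted p = 0.161), HEA 1 or HEA 2. Wnt5a was at 0.31 ± 0.15 (adjusted p = 0.111).

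Single genes with large and even rises were Synm, a cytoskeletal filament protein, at 4.75, 6.10 and 4.67 RPKM in EV and 29.9, 30.1 and 30.4 RPKM in HEA, and Flt1, a VEGF receptor, at 3.29, 4.14 and 3.44 RPKM in EV and 20.0, 18.8 and 19.2 RPKM in HEA. Kdm7a, a histone demethylase, was at 3.26 ± 0.64 RPKM in EV, 17.2 ± 0.57 RPKM in HEA and 1.92 ± 0.21 RPKM in WT. Dgat1, which like Dgat2 makes triglycerides, was at 35.7 ± 4.2 RPKM in EV, 91.0 ± 18 RPKM in HEA and 32.2 ± 1.9 RPKM in WT. Some strong rises were shared in direction with WT, such as Gls2, a glutaminase, at 2.64 RPKM in EV, 17.6 RPKM in HEA and 9.06 RPKM in WT, and the adenosine receptor Adora2b, at 0.992, 6.42 and 5.20 RPKM. Hes1, a repressor in Notch signalling, was at 22.1, 14.8 and 20.3 RPKM in EV and 5.25, 5.10 and 6.83 RPKM in HEA (-1.64 ± 0.15). The ETS factor Etv5 (-0.70 ± 0.10) and Egr1 (-0.89 ± 0.27) were lower, beside Dusp6 and Egr2.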
